A study of Bos taurus with 4 samples.

Results

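Vitamin D and calcium absorption genes were examined in bovine intestine, muscle and intestinal organoids. The 8 genes were chosen by symbol from what they are known to do: TRPV6 (calcium entry), S100G and CALB1 (cytosolic calcium buffers), ATP2B1 and SLC8A1 (calcium export), VDR and RXRA (the vitamin D receptor and its partner) and CYP24A1 (vitamin D breakdown). Each symbol had 1 row among the 29792 rows of the count files, and all 8 genes had at least 1 read in some library, as did 22200 rows in all. At least 10 reads in any library were found for 7 of the 8 genes and for 18818 rows, and 4 of the 8 genes had more than 3 reads in every library.

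All samples were from Hanwoo cows, and the cattle were over 24 months old. There were 4 libraries, 1 each of intestine tissue (small intestine in the study's text), muscle tissue, intestinal organoids at passage 5 (P5) and intestinal organoids at passage 10 (P10). The organoids are crypts of the jejunum grown in Matrigel, a gel of basement membrane proteins, with IntestiCult medium. Whether tissue and organoids came from the same animals, the part of the small intestine in the tissue library, and the muscle sampled are not given in the sources used here. QuantSeq libraries, which sequence the 3′ end of polyadenylated RNA, were read on an Illumina NextSeq instrument.

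In the small intestine, absorptive cells take up calcium from the lumen through the apical channel TRPV6. Inside the cell calcium is bound by calbindins, which carry it across the cytosol, and it leaves on the blood side through the plasma membrane pump ATP2B1 and the sodium-calcium exchanger SLC8A1. Active vitamin D binds VDR, which pairs with RXRA on DNA and raises transcription of TRPV6, S100G and CYP24A1 in the intestine, and the enzyme encoded by CYP24A1 inactivates the hormone. In mammals S100G, also named calbindin-D9k, is the calbindin typical of the intestine, and CALB1, also named calbindin-D28k, is best known from kidney and brain.

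Levels are given as the deposited reads and as CPM, the counts scaled to a library total of 1000000 reads, with exact Poisson 95% intervals. The totals ran from 12917720 to 17776273 reads. A count of 3 reads or fewer was taken as the floor of detection, which was 0.169 CPM in intestine and in P10 organoids, 0.221 CPM in P5 organoids and 0.232 CPM in muscle. Differences are log2 differences of quantile-normalised counts with 1 added, and a gene was called when it was at least 2-fold apart on that scale and the higher library had 10 reads or more. Ratios per library total have exact conditional binomial 95% intervals. Neither the intervals nor the floors hold more than counting error, and reads copied from one molecule by PCR are not independent. With 1 library for each condition no difference has a replicate check, no test was possible and no p-value is given. The comparisons of P5 and P10 organoids with intestine share the intestine library.

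The tissue labels were checked against marker genes. The 6 skeletal muscle markers summed to 31359 CPM in muscle and to at most 2.19 CPM elsewhere. The 7 epithelial markers summed to 1326 CPM in intestine, 6207 CPM in P5 organoids, 6787 CPM in P10 organoids and 15.5 CPM in muscle. The smooth muscle, stromal, immune and endothelial lists were all present in intestine, at 2275, 998, 1335 and 43.8 CPM. They summed to at most 12.6 CPM each in the organoids. COL3A1, DCN, LUM and CD74 had no reads there. Other genes of these lists did, among them MYH11 (101 reads in P5 and 100 in P10 organoids), PTPRC (40 and 43) and CD79A (0 and 35). The 8 enterocyte markers summed to 11496 CPM in intestine, 4102 CPM in P5 organoids and 124 CPM in P10 organoids, but the single genes did not move together. APOA4 had 63699 reads in intestine, 34 in P5 and none in P10 organoids, whereas ANPEP, a brush border peptidase, had 125, 28104 and 243, and ALPI, a brush border phosphatase, had 17 in intestine and none in organoids. The 6 proliferation markers ran the other way, from 85.7 CPM in intestine to 465 CPM in P5 and 680 CPM in P10 organoids. Intestine is therefore a mixture of epithelium and other layers, and in each bulk sample fewer cells of a type and less RNA per cell cannot be told apart. The part of these shifts in the results on single genes was not tested.

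**Figure D1:**
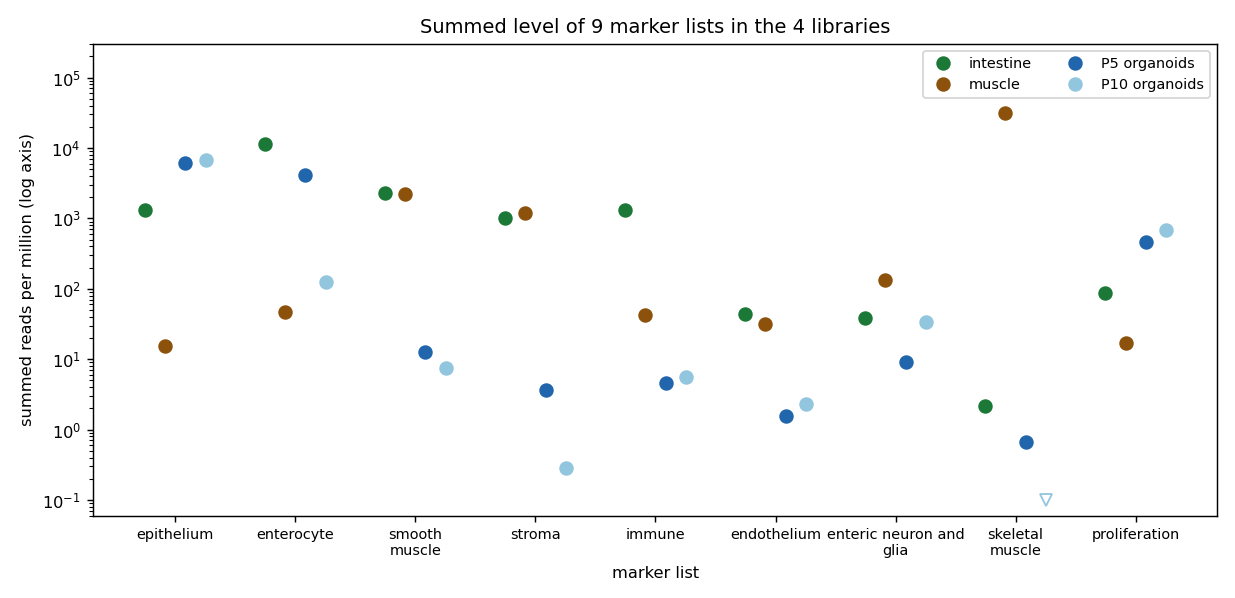
Summed CPM (log axis) of 9 marker lists in the 4 libraries, 1 point per library, with an open triangle where no read was counted. The enterocyte list stood highest in intestine, then P5 organoids, P10 organoids and muscle (11496, 4102, 124 and 47.5 CPM). The smooth muscle, stromal and immune lists were at 12.6 CPM or lower in both organoid libraries.

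The calbindins differed strongly between intestine and organoids, in opposite directions. S100G had 69863 reads in intestine, 182 in muscle and none in P5 or P10 organoids. This was 3930 CPM in intestine (95% interval 3901 to 3959), where S100G was the 18th most abundant row, and 14.1 CPM in muscle (12.1 to 16.3). CALB1 had 17 reads in intestine, none in muscle, beside 1552 in P5 and 875 in P10 organoids. This was 0.956 CPM in intestine (0.557 to 1.53), 114 CPM in P5 organoids (109 to 120) and 49.3 CPM in P10 organoids (46.1 to 52.7). Thus S100G was abundant in intestine and not detected in either organoid library, whereas CALB1 was scarce in intestine and well counted in both.

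Per library total, the level of S100G in intestine exceeded that in P5 organoids at least 17816-fold and that in P10 organoids at least 23228-fold, taking 3 reads in the organoid library as the limit. On the quantile scale these bounds were 14331-fold and 8401-fold. For CALB1 the level in P5 organoids was 119 times that in intestine (95% interval 74.3 to 205) and the level in P10 organoids 51.6 times (32.0 to 89.0), with log2 differences of 7.39 and 6.12. Of the reads on the 2 calbindins together, CALB1 took 0.0243% in intestine (Clopper-Pearson 95% interval 0.0142% to 0.0389%) and 100% in P5 organoids (99.8% to 100%) and P10 organoids (99.6% to 100%). The summed level of both was 3931 CPM in intestine, 114 CPM in P5 organoids and 49.3 CPM in P10 organoids, so that together they remained far lower in organoids than in intestine.

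The muscle reads of S100G were few beside those of intestine. The level in muscle was 0.358% of that in intestine, and the 8 enterocyte markers together stood at 0.413%. The 4 enterocyte markers with the most reads in intestine ranged from 0.214% for APOA4, an apolipoprotein of absorptive cells, to 3.19% for the disaccharidase SI, while ANPEP had more reads in muscle (152) than in intestine (125). S100G in muscle was thus within the range of those 4 markers, and the source of these reads was not tested. CALB1 was at 0 in muscle. Its level in intestine was at least 4.12-fold higher per library total but only at least 1.06-fold higher on the quantile scale. The log2 difference followed the pseudocount, from 6.34 with 0.1 to 1.38 with 5. It stayed past 2-fold, but this call rests on 17 reads against 0.

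S100G lies inside the longer gene CTPS2, which encodes a CTP synthase, in the NCBI RefSeq gene table of the assembly ARS-UCD2.0. The CTPS2 row had 70123 reads in intestine and 243 in muscle, beside 142 in P5 and 172 in P10 organoids. It exceeded the S100G row by 260 reads in intestine and by 61 in muscle. The study's methods name the Bedtools coverage command but do not state whether counting used the strand. Whether the same reads were counted for both rows was not tested, so the CTPS2 row in intestine cannot be read as the level of CTPS2 alone. In the organoids CTPS2 had reads and S100G had none. Of the other 7 genes, SLC8A1 overlapped 2 RefSeq long non-coding genes, which had at most 25 reads in any library, and 6 overlapped no other gene in that table.

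TRPV6, the entry channel, was counted in intestine and not in organoids, as S100G was. It had 136 reads in intestine, or 7.65 CPM (95% interval 6.42 to 9.05), and none in muscle, P5 organoids or P10 organoids. Its reads were thus seen in intestine alone. The level in intestine was at least 34.7-fold above P5 organoids, 45.2-fold above P10 organoids and 32.9-fold above muscle per library total. On the quantile scale these bounds were 22.5-fold, 13.2-fold and 11.2-fold.

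Calcium export genes were present in every library. ATP2B1, the pump that moves calcium out of the cell against its gradient, had 5750 reads in intestine and 1736 in muscle, beside 6818 in P5 and 4603 in P10 organoids. Its level was highest in P5 organoids at 501 CPM (95% interval 490 to 513), then 323 CPM in intestine (315 to 332), 260 CPM in P10 organoids (252 to 267) and 134 CPM in muscle (128 to 141), and none of these intervals overlapped. Intestine lay between the passages: the log2 difference from intestine was 0.47 in P5 organoids and -0.57 in P10 organoids, both within 2-fold. Between the passages the log2 difference was -1.04, just past 2-fold, and -0.95 with library totals, short of it.

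SLC8A1, which trades sodium for calcium and is also strongly expressed in muscle layers and neurons, had 1620 reads in intestine and 179 in muscle, beside 59 in P5 and 519 in P10 organoids. The levels were 91.1 CPM in intestine (95% interval 86.7 to 95.7), 29.3 CPM in P10 organoids (26.8 to 31.9), 13.9 CPM in muscle (11.9 to 16.0) and 4.34 CPM in P5 organoids (3.30 to 5.60). P10 organoids were thus nearer to intestine than P5 organoids were. The order of P10 organoids and muscle depended on the scaling, with a log2 quantile difference of -0.32. The log2 difference from intestine was -4.41 at P5 and -1.97 at P10, and P10 organoids stood 6.75-fold above P5 organoids per library total (5.15 to 8.99). Beside this, the smooth muscle list went from 2275 CPM in intestine to 12.6 CPM in P5 and 7.56 CPM in P10 organoids, and the enteric neuron and glia list from 38.7 to 9.12 and 33.6 CPM. In the latter list ELAVL4 had at most 2 reads in either organoid library, and UCHL1 had 559 of the 596 reads in P10. The part of these cells in the SLC8A1 result was not tested.

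The vitamin D receptor pair was lower in both organoid libraries than in intestine, by less than 2-fold. VDR had 2075 reads in intestine and 93 in muscle, beside 1191 in P5 and 1835 in P10 organoids. This was 117 CPM in intestine (95% interval 112 to 122), 103 CPM in P10 organoids (98.8 to 108), 87.6 CPM in P5 organoids (82.7 to 92.7) and 7.20 CPM in muscle (5.81 to 8.82). The intervals of intestine and P10 organoids did not overlap, though the levels were close, and the 3 intestinal libraries stood 12.2-fold to 16.2-fold above muscle per library total. On the log2 quantile scale the differences from muscle were smaller, at 2.85 for intestine, 2.18 for P5 and 2.39 for P10 organoids. Both organoid libraries were within 2-fold of intestine, with log2 differences of -0.66 in P5 and -0.46 in P10 organoids. The epithelial list was at 1326 CPM in intestine, 6207 CPM in P5 and 6787 CPM in P10 organoids. Its part in the VDR and RXRA values was not tested.

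RXRA, the partner that VDR needs to bind DNA, had 1484 reads in intestine and 458 in muscle, beside 903 in P5 and 1051 in P10 organoids. The levels were 83.5 CPM (95% interval 79.3 to 87.8), 35.5 CPM (32.3 to 38.9), 66.4 CPM (62.1 to 70.9) and 59.3 CPM (55.7 to 63.0) in that order. The intervals of P5 and P10 organoids overlapped, and their ratio per library total was 0.893 (0.816 to 0.977). Log2 differences from intestine were -0.58 in P5 and -0.81 in P10 organoids. The order of organoids and muscle depended on the scaling: P5 organoids were 1.87-fold above muscle per library total but had a log2 quantile difference of -0.20.

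CYP24A1 had 2 reads in P5 organoids and none in intestine, muscle or P10 organoids. All 4 libraries were at the floor, so no difference was detectable at this depth. The 2 reads in P5 organoids come to 0.147 CPM with an interval of 0.0178 to 0.531 CPM, and 3 reads in intestine would be 0.169 CPM. Hence VDR and RXRA each had at least 903 reads in intestine and both organoid libraries. CYP24A1, whose enzyme inactivates the ligand of VDR, had at most 2.

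**Figure D2:**
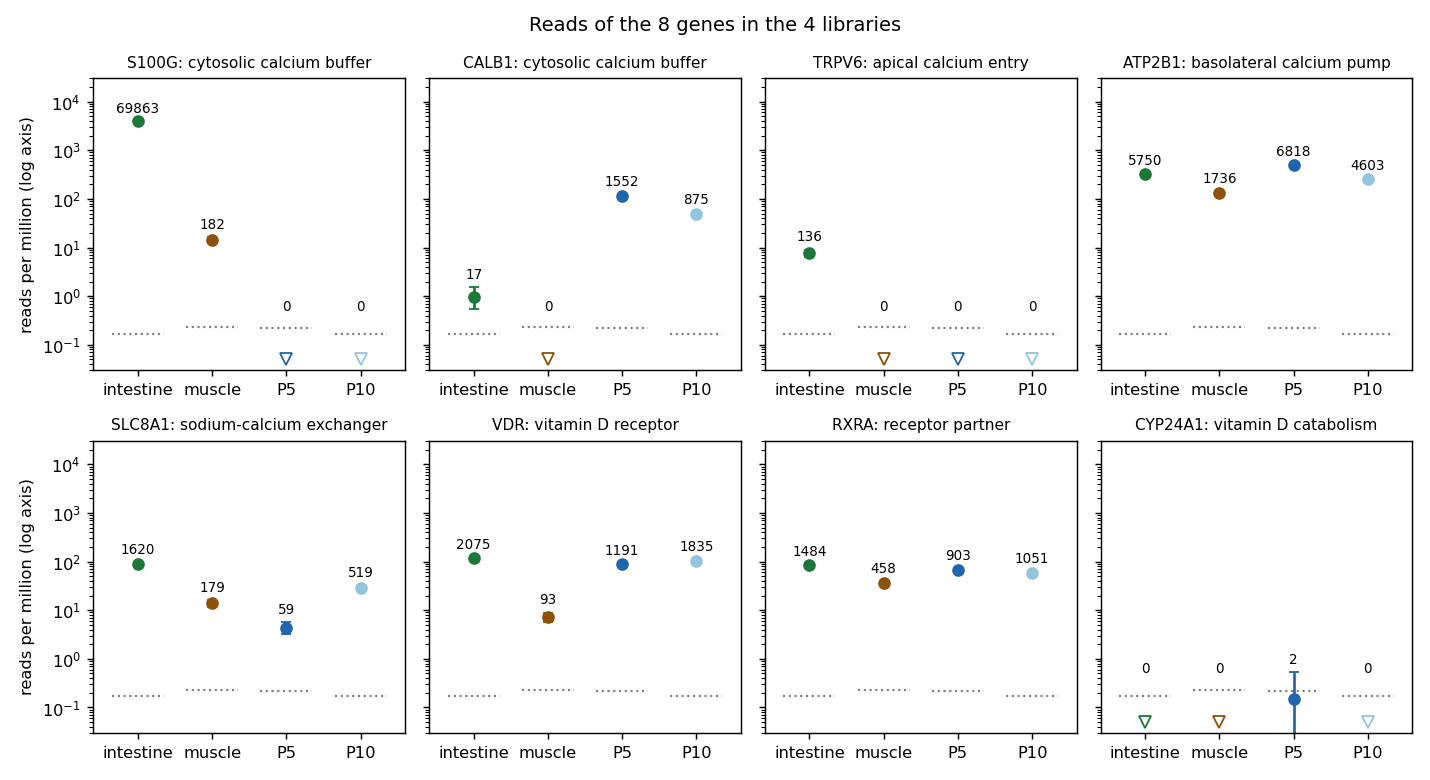
CPM (log axis) of the 8 genes in intestine, muscle, P5 and P10 organoids, with the reads printed above each point. Bars are exact Poisson 95% intervals, open triangles are libraries without a read, and dotted lines mark the level of 3 reads. S100G and TRPV6 were counted in intestine (69863 and 136 reads) and in neither organoid library, and CALB1 showed the opposite order. VDR and RXRA were lower in both organoid libraries than in intestine, by less than 2-fold.

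Between P5 organoids and intestine, 7 of the 8 genes could be called. S100G, TRPV6 and SLC8A1 were lower past 2-fold and CALB1 was higher, while ATP2B1, VDR and RXRA were within 2-fold. Of the 17783 rows compared, 22.8% were at least 2-fold lower and 24.9% higher. Between P10 organoids and intestine the calls were the same for each of the 7 genes, on a background of 26.1% lower and 28% higher. With TMM scaling, the share of higher rows among those past 2-fold went from 52.3% to 40.5% for P5 organoids, and with upper-quartile scaling it went from 51.7% to 40.7% for P10 organoids, and neither changed a call among the 8 genes.

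Between the passages, 5 genes could be called. SLC8A1 was at least 2-fold higher in P10 organoids (log2 difference 2.45), and CALB1 (-1.27) and ATP2B1 (-1.04) were lower. VDR (0.21) and RXRA (-0.23) were within 2-fold. Of 16131 rows, 16.1% were at least 2-fold higher and 16.6% lower.

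Between intestine and muscle, S100G, CALB1, TRPV6, SLC8A1 and VDR were at least 2-fold higher in intestine and none of the 7 genes that could be called was lower. The background was 32.3% higher and 27% lower of 17559 rows. Log2 differences were 7.02 for S100G, 1.65 for SLC8A1, 2.85 for VDR, 0.80 for ATP2B1 and 0.37 for RXRA. CALB1 and TRPV6 were at 0 in muscle, and their bounds are given above. The scaling mattered here, since library totals moved the median difference of these rows from 0.084 to 1.31 and the share of higher rows among those past 2-fold from 54.5% to 83.3%. ATP2B1 at 1.27 and RXRA at 1.23 with library totals were thus no further from 0 than the median row, S100G, SLC8A1 and VDR stood at 8.12, 2.71 and 4.01, and CALB1 and TRPV6 were not compared with it because muscle was at 0.

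**Figure D3:**
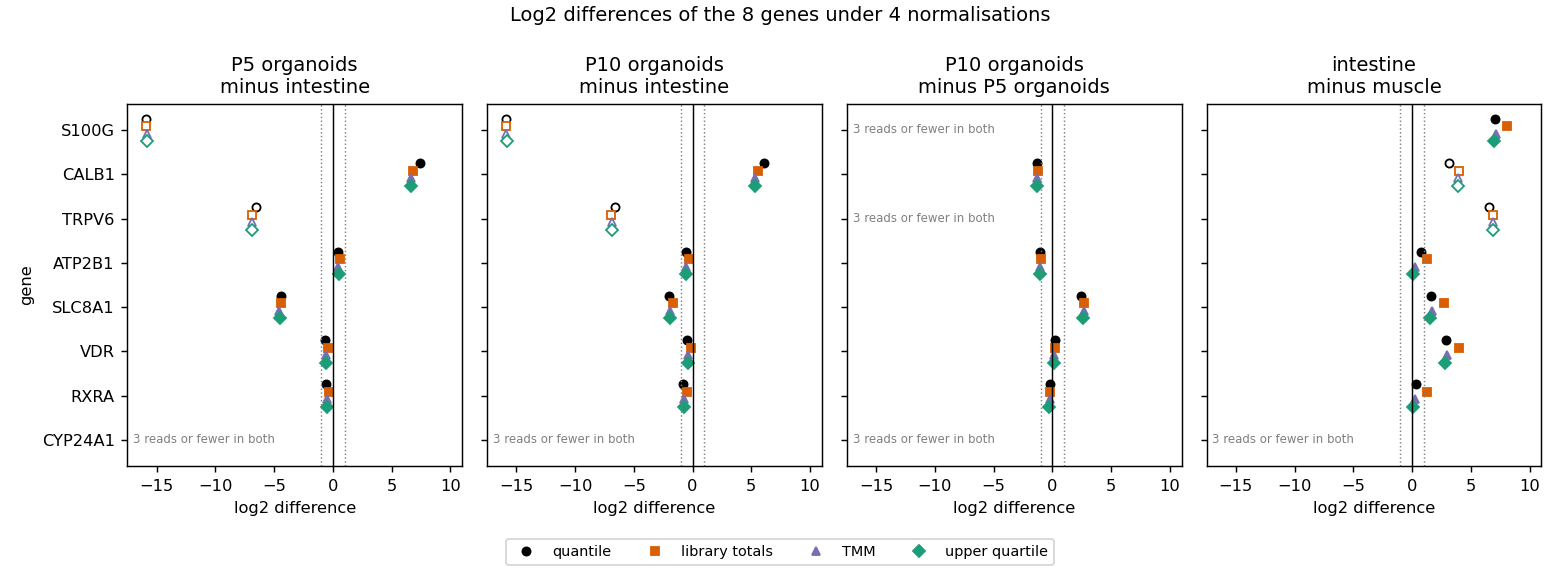
Log2 differences of the 8 genes in 4 comparisons, with 1 symbol for each of 4 normalisations and dotted lines at 2-fold. Open symbols have 3 reads or fewer in 1 of the 2 libraries and show no measured size. Quantile, TMM, upper-quartile and library-total scaling kept each gene on the same side of 0, and the spread between scalings was widest between intestine and muscle. For open symbols, which stand against 0 reads, the side could not change.

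Another 37 calcium and vitamin D genes were listed by role, and they had 38 rows, since CLDN12 has 2. Of the 31 rows with enough reads, 12 were past 2-fold on the side of P5 organoids and 3 on the side of intestine, with a median log2 difference of 0.49. Over all rows compared the shares were 24.9% and 22.8% and the median 0.11. For P10 organoids 12 of 30 rows were higher and 7 lower (median 0.46), beside 28% and 26.1% of all rows (median 0.11). The 12 became 8 with library totals and 7 with TMM, upper-quartile scaling or totals without RN18S1. Between P10 and P5 organoids 3 of 27 were higher and 8 lower (median -0.33), beside 16.1% and 16.6% of all rows (median 0.061). Between intestine and muscle 14 of 28 were higher in intestine and 6 lower (median 1.02), beside 32.3% and 27% of all rows (median 0.084).

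Among genes of entry, S100A10 and ANXA2, whose products bind each other and help TRPV6 reach the membrane, were counted in all 4 libraries although TRPV6 was not. S100A10 had 2795 reads in intestine, 1085 in muscle, 7021 in P5 and 6782 in P10 organoids, and was past 2-fold higher in both organoid libraries (log2 differences 1.59 and 1.09). ANXA2 had 4104, 771, 7939 and 6701 reads in the same order, with log2 differences from intestine of 1.21 and 0.50. CACNA1D, a voltage-gated calcium channel, had 47 reads in intestine, 55 in P5 and 34 in P10 organoids. Its log2 differences from intestine were 1.25 and 0.42. With other scalings the former was 0.43 at the lowest, and the latter took either sign. TRPV5, the channel of the kidney most like TRPV6, had no reads in any library. CALB2, another calcium-binding buffer, had no reads in intestine or muscle, 14 in P5 and 19 in P10 organoids.

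The other pumps and exchangers were mixed. ATP2B4, another plasma membrane pump, was within 2-fold of intestine in both organoid libraries, with 355 reads in intestine, 393 in P5 and 538 in P10 organoids. SLC8B1, the exchanger of mitochondria, had 132, 113 and 458 reads and was past 2-fold higher in P10 organoids than in either. ATP2B2, a plasma membrane pump known from neurons, had 39, 10 and 65 reads, and P10 exceeded P5 organoids by 2.17 (log2), beside 2.45 for SLC8A1. SLC8A2, an exchanger known from neurons, had 36 reads in intestine and at most 2 in the organoids, and like SLC8A1 it was lower past 2-fold in both. Of the pumps that fill the endoplasmic reticulum, ATP2A2 was within 2-fold of intestine in both organoid libraries (1686, 1948 and 2533 reads), and ATP2A3 was level in P5 organoids (255 reads against 250) and lower in P10 organoids (41 reads, log2 difference -2.29).

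The paracellular route, along which calcium passes between cells, was listed by 3 claudins. CLDN2, which forms a pore for cations, was 4.34-fold above intestine in P5 organoids (95% interval 4.12 to 4.56) and 5.80-fold in P10 organoids (5.53 to 6.08) per library total. CLDN15, another pore-forming claudin, was 1.92-fold (1.79 to 2.07) and 3.26-fold (3.06 to 3.47) above intestine, past 2-fold on the quantile scale in P10 organoids alone. The main row of CLDN12 had 55 reads in intestine, 97 in P5 and 100 in P10 organoids, past 2-fold in both, but its log2 difference of 1.38 in P10 organoids was 0.60 at the lowest with other scalings, and its other row had at most 1 read in these libraries. Beside these, the epithelial list went from 1326 CPM in intestine to 6207 and 6787 CPM in the organoids, and its part was not tested. Between the passages KRT18 rose from 573 to 1878 CPM. All other genes of that list were lower per library total in P10 than in P5 organoids, for example EPCAM at 578 against 1041 CPM. STC1, a secreted glycoprotein linked to calcium and phosphate balance, had 139 reads in intestine, 826 in P5 and 1366 in P10 organoids. The calcium-sensing receptor CASR was counted at 40, 25 and 8 reads, and its sign in P5 organoids depended on the scaling.

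Genes of vitamin D handling differed among themselves, and CUBN and CYP27A1 were within 2-fold of intestine in P5 organoids and lower past 2-fold in P10 organoids. CUBN, a receptor that takes up vitamin D with its carrier protein in the kidney and the cobalamin complex in the gut, had 1926 reads in intestine, 1743 in P5 organoids and 76 in P10 organoids. CYP27A1, a mitochondrial enzyme that can hydroxylate vitamin D and sterols, had 1065, 828 and 371 reads. The enterocyte list was at 11496, 4102 and 124 CPM in the same libraries, and its part in these values was not tested. CYP2R1, the main hydroxylase at the first step, had 48 reads in intestine, 74 in P5 and 90 in P10 organoids. This was past 2-fold higher in both. With other scalings the log2 difference came to 0.82 at the lowest in P5 and 0.64 in P10 organoids. LRP2, a partner of CUBN in uptake, had 1 read in intestine, 17 in P5 and 11 in P10 organoids. CYP27B1, which makes the active hormone, was scarce, with 13 reads in intestine, none in P5 and 7 in P10 organoids. GC, the carrier protein of plasma, had at most 2 reads anywhere.

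The receptor partners gave smaller differences. RXRB, MED1 and NCOR1 were within 2-fold of intestine in both organoid libraries, and the coactivator NCOA1 was lower in both (log2 differences -1.39 and -1.68). RXRG, the form best known from muscle and brain, had 70 reads in muscle and 8 to 11 in the others, and its call as higher in P10 organoids turned over with other scalings, to -0.48 at the lowest. In muscle the reticulum pump ATP2A1, the form of fast skeletal muscle, had 8096 reads, against 65 in intestine.

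The listed receptor targets outside calcium transport were lower in P10 than in P5 organoids. SLC30A10, a manganese exporter induced by vitamin D, had 91 reads in intestine, 201 in P5 organoids and none in P10 organoids or muscle. CYP3A4, an enzyme of drug and vitamin D breakdown with near-identical family members, had 1970, 924 and 160 reads in intestine, P5 and P10 organoids. ABCB1, an efflux pump, had 1483, 4768 and 938 reads. SLC34A2, the intestinal phosphate carrier, had none in intestine, 85 in P5 and 8 in P10 organoids. All 4 were past 2-fold lower in P10 than in P5 organoids, as were 16.6% of all rows compared, with log2 differences of -2.91 for CYP3A4, -2.87 for ABCB1 and -2.95 for SLC34A2. SLC30A10 was at least 87.4-fold lower per library total and 28.5-fold on the quantile scale, against 3 reads. VDR itself differed by 0.21 in the other direction, but receptor activity was not measured and the part of VDR was not tested. The enterocyte list was lower in P10 organoids too, as given above, and its part in these differences was not tested.

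**Figure D4:**
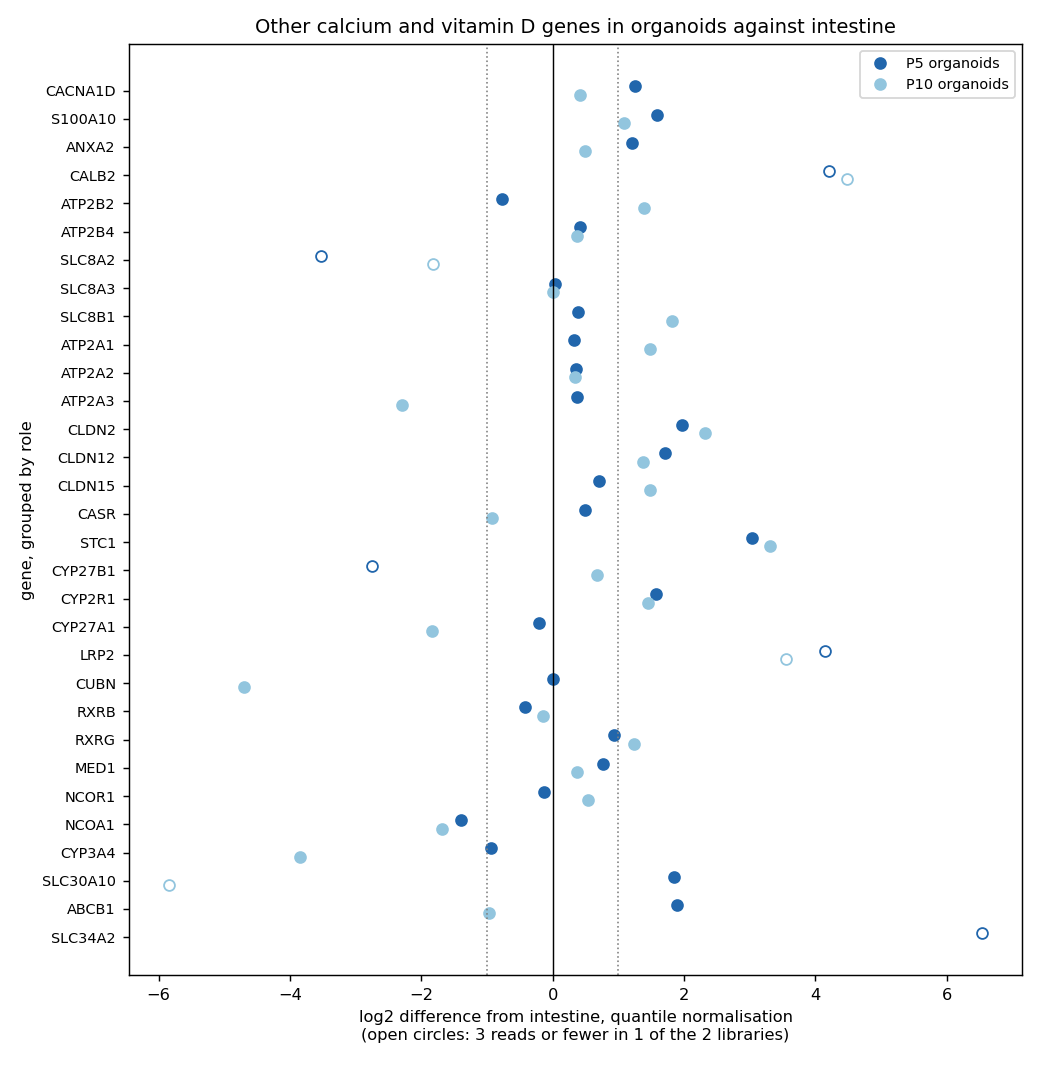
Log2 differences from intestine on the quantile scale for the other listed calcium and vitamin D genes with at least 10 reads, in P5 organoids (dark) and P10 organoids (light), in the order of the roles. Open circles have 3 reads or fewer in 1 of the 2 libraries and dotted lines mark 2-fold. CLDN2 and STC1 lay to the right of 2-fold in both, and CUBN, CYP3A4 and SLC30A10 lay far to the left in P10 organoids alone.

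The rows with the most similar pattern were found by the Euclidean distance of centred log2 quantile values over the 4 libraries, among 15051 rows with at least 50 reads in the highest library. For S100G these were MPTX, a mucosal pentraxin (distance 0.72), BOLA-DRB3, a class II antigen presentation gene (1.28), and LOC524810 (1.42), each without a read in organoids. For CALB1 they were DEFB13, CDKN2A and SH2D4A, at distances of 1.37 to 1.61. Near TRPV6 were SPOCK2 (distance 0.045) and F2RL3 (0.076), which had 139 and 142 reads in intestine and none elsewhere. VDR was nearest to LOC786974, TKFC and PELP1 (0.15 to 0.21), and RXRA to RAB28, USP3 and ARID4B (0.036 to 0.090). ATP2B1 was nearest to LOC112447052, GATAD1 and SYNJ2 (0.085 to 0.12) and SLC8A1 to KCNT1, KIF21B and ENTPD1 (0.33 to 0.37). A pattern over 4 libraries is a short description, and many rows share one.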

How the data were processed

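QuantSeq 3′ mRNA-Seq was performed on 4 libraries, 1 per condition. According to the study's methods, the authors aligned reads with Bowtie2 to genome or transcript indices and counted unique and multiple alignments with Bedtools, and the deposited values are raw read counts per gene symbol. Reads with several alignments were kept, so that counts of near-identical genes are uncertain. Versions and the genome build are not given in the sources used here, and no coordinates or sequences are given.

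Quantile normalisation, which the study's methods name, was applied here to the counts of the 22200 rows that had a read, and the values were used as log2(value + 1), which shrinks the change of low genes. This scale spreads low counts unevenly: a single read came to 0.32 (log2) in intestine but 0.81 in P5 organoids and 2.09 in muscle and P10 organoids. Depth was 12917720 to 17776273 reads, of which RN18S1, a ribosomal RNA gene, took 0.264% to 23.6%. Groups followed the sample titles. The genes, the pathway list and the 9 marker lists were chosen with earlier results of these data known. Rows with the nearest pattern were the 3 at the smallest distance from each of the 8 genes with at least 50 reads, of which 1 is not reported here. Pathway genes could be named from 10 reads in any library, and TRPV5 and GC, which had fewer, were named for their role after their values were seen. The alternatives were CPM, TMM and upper-quartile scaling, pseudocounts of 0.1 and 5, a filter of 10 reads in any library and summing by symbol. Library totals without RN18S1 were added after seeing the data. The normalisation, the calls and the intervals were tested on simulated data. For the normalisation and the calls, the simulated libraries shared an expression profile apart from a small set of raised genes. The real libraries differ in far more rows, so this was a check of the code and not of the calls made here. limma 3.58.1 and edgeR 4.0.16 (TMM and upper-quartile library sizes) ran in R 4.3.3. All else ran in Python 3.11.15 with scipy 1.17.1, pandas 2.3.3, matplotlib 3.10.9 and numpy 2.4.6.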

Additional observations from a re-analysis of the deposited data

Results flagged for a closer look

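ATP2B1 was above intestine at one passage and below it at the other, with a log2 difference of 0.47 in P5 organoids (6818 reads against 5750) and -0.57 in P10 organoids (4603 reads). Both differences were within 2-fold. Per library total the ratios to intestine were 1.55 and 0.803, and both 95% intervals left out 1. These intervals hold counting error only, which is small at such read numbers. The difference between the passages was not tested, since each has 1 library.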

How the results depend on the processing

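The 26 differences of the 8 genes that had over 3 reads in either library kept their direction under all 8 alternatives. Some were against 0 reads and could not turn over. These were S100G and TRPV6 in organoids against intestine, and TRPV6 and CALB1 in intestine against muscle. Of the 16 counts of genes past 2-fold, 14 stayed within 1.5 times the reported count. The exceptions were as follows. With library totals, 1 of the 8 genes was at least 2-fold lower in P10 than in P5 organoids in place of 2, because ATP2B1 came to -0.95. With TMM, upper-quartile scaling or library totals without RN18S1, 7 listed pathway rows were at least 2-fold higher in P10 organoids than in intestine in place of 12. Over all rows, library totals raised those higher in intestine than in muscle from 5680 to 9969 and lowered the reverse from 4741 to 2002, and without RN18S1 these were 8728 and 2431. Differences against a library at 0 follow the pseudocount: S100G in organoids against intestine ran from -19.22 to -13.57 and TRPV6 from -9.89 to -4.31. No replicate could be left out, and no paired analysis was possible because each condition has 1 library. Counts of 3 reads or fewer, 0.169 to 0.232 CPM at 3 reads, set no measured fold.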

Other observations

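Of 11467 rows with at least 100 reads in intestine, 267 had no read in either organoid library. S100G stood second among them by reads in intestine, after LOC524810 (96348 reads) and before MPTX (58723 reads). The antigen presentation genes BOLA-DRB3 (28674 reads), CD74 (19046) and BOLA-DRA (18609), which immune cells express, were also among the first 10.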
